A study of Homo sapiens with 8 samples.

Results

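The mitochondrially encoded genes are the genes of the small circular genome inside mitochondria, and they were taken as every gene of the count table whose symbol starts with MT-. There were 37 of them among the 59023 named genes of the table, namely 13 mRNAs, 2 rRNAs and 22 tRNAs. The question addressed here is whether their RNA changed when renal cancer cells were stimulated with the inflammatory cytokine IL1β. The cells were A498, an established human line of clear cell renal cell carcinoma, and every library came from this 1 line, so the replicates are cultures of 1 line and not donors. Libraries 1 to 4 were from untreated cells and libraries 5 to 8 were from cells given 30 ng/ml IL1β, with RNA taken after 4 h. No genetic change was made in either group. The study speaks of experimental pairs, but the labels do not say which libraries belong together, and p-values measure the spread between these libraries, part of which may be technical.

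Mitochondrial DNA is transcribed from both strands into long RNAs that cover many genes, and tRNAs, which lie between most of the mRNAs and rRNAs, are cut out to release them. Human mitochondrial mRNAs then receive a short poly(A) tail, except MT-ND6, which is known to lack a stable one, and several of them need the tail to complete their stop codon. The mRNAs encode core subunits of respiratory complexes I, III and IV and of the ATP synthase, while the rRNAs and tRNAs make up the mitochondrial translation machinery together with proteins imported from the cytosol. The renal tubule, from which clear cell carcinoma arises, is rich in mitochondria.

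In the human genome build hg38 the mitochondrial chromosome has 16569 bases, and GENCODE 44 places 28 of the 37 genes on its plus strand and 9 on its minus strand. The genes touch or overlap so closely that a read can belong to more than 1 of them. The longest overlap, of 46 bases at chrM:8527-8572, is between MT-ATP8 and MT-ATP6, which both encode subunits of the ATP synthase and are carried on 1 RNA. MT-ND4L and MT-ND4, a second pair carried on 1 RNA, share 7 bases at chrM:10760-10766. Both overlaps are shown because the ratios within these pairs varied between libraries, with the bases that belong to both genes in capitals and flanking bases in lower case.
MT-ATP8 and MT-ATP6, plus strand, chrM:8515-8584: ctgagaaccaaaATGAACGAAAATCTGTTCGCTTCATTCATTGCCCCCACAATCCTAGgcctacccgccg
MT-ND4L and MT-ND4, plus strand, chrM:10748-10778: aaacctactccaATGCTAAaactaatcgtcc
Each capital stretch starts with the ATG of the downstream gene and ends with the stop codon of the upstream gene.

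The ends of the mRNAs show how the genes are packed. In the genome, 6 of the 13 mRNAs stop in the middle of a codon. MT-ND1 ends in TA, and MT-ND2, MT-CO3, MT-ND3, MT-ND4 and MT-CYB end in a lone T. Examples are given with the last whole or partial codon in capitals, the bases before it belonging to the mRNA and the bases after it lying outside it.
MT-CYB, plus strand: tcaaatgggccTgtccttgtagta
MT-ND4, plus strand: ggttttcctctTgtaaatatagtt
MT-CO3, plus strand: gatgagggtctTactcttttagta
MT-ND6, minus strand: cgggggaatAGGttatgtgattag
The bases after the capital T of MT-CYB are the start of MT-TT, the tRNA with the most counts. Those after MT-ND4 and MT-CO3 are the starts of MT-TH and MT-TG. MT-ND6, the only mRNA on the minus strand, ends in the whole codon AGG and meets the end of MT-ND5 on the other strand, with no tRNA between them.

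The libraries held 15409093 to 27040505 counts over named genes, so that 1 count stood for 0.0370 to 0.0649 CPM (counts scaled to a library total of 1000000). Of 15062 genes tested across the table, 140 rose and 9 fell with IL1β, which is 0.929% and 0.0598%. Libraries 1 and 5 stood apart from the other 6 on the first principal component, which held 42.75% of the variance, and library 4 lay between the groups on the second. The 12 markers of renal epithelium or of A498 cells, KRT8 and VIM among them, summed to 5491 to 6427 CPM in untreated libraries. In IL1β libraries they summed to 6165 to 6982 CPM. Of 11 tested, 1 rose, PAX8 (edgeR adjusted p 0.0239), while EPCAM had too few counts to be tested. The 5 leukocyte markers summed to at most 20.2 CPM and the 4 endothelial markers to at most 2.38 CPM. The most abundant leukocyte marker was LYZ, at 19.5 CPM in library 1, 6.52 CPM in library 8 and 2.79 CPM in library 4. CD3E was at 0 in every library. The 5 fibroblast markers summed to 46.7 to 1182 CPM in untreated and 90.1 to 431 CPM in IL1β libraries, with COL1A1 at 680 CPM in library 4. The part of these differences between libraries in the mitochondrial values was not tested.

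Mitochondrially encoded RNA took a small share of every library, and the shares of the treated and untreated cells overlapped. The untreated libraries 1 to 4 had 1.43%, 2.33%, 1.28% and 1.76% of their counts in the 37 genes. The IL1β libraries 5 to 8 had 1.14%, 1.34%, 1.57% and 1.30%. Library 2 was the highest of the 8 and library 5 the lowest, and the means were 1.70% ± 0.468 (SD, n = 4) for untreated and 1.34% ± 0.180 (SD, n = 4) for IL1β. The difference of -0.361 percentage points is smaller than the SD of the untreated libraries, and without library 2 it was -0.149. The 95% binomial (Wilson) interval of a library was at most from 2.325% to 2.34%, which covers counting error only, so depth does not limit these shares. In a bulk library, a lower share can come from less mitochondrial RNA per cell, from more nuclear RNA or from a different mix of cells, and these cannot be told apart.

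The mRNAs made up most of the mitochondrial counts. They held 1.09%, 1.81%, 0.971% and 1.32% of the counts of libraries 1 to 4, and 0.900%, 1.03%, 1.25% and 0.761% of libraries 5 to 8. The rRNAs held 0.333%, 0.517%, 0.304% and 0.436% in the untreated libraries and 0.234%, 0.313%, 0.321% and 0.539% in the IL1β libraries. Library 8 was therefore the lowest of all libraries for mRNAs and the highest for rRNAs. The tRNAs together reached no more than 0.00185% of a library. Groups overlapped in all 3 classes, with means of 1.30% ± 0.372 and 0.984% ± 0.208 for the mRNAs and 0.398% ± 0.0980 and 0.352% ± 0.131 for the rRNAs (untreated and IL1β, SD, n = 4 each).

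**Figure D1:**
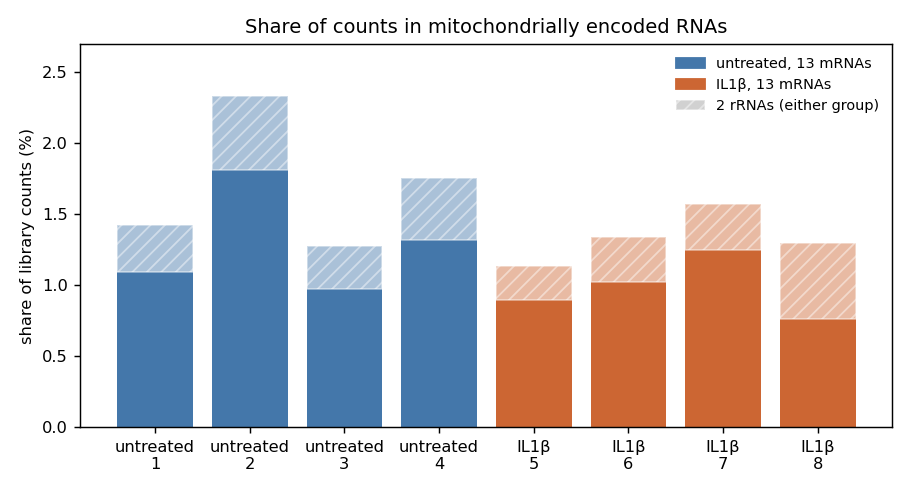
Share of each library's counts (percent, vertical axis) in mitochondrial mRNAs and rRNAs for the 8 libraries, stacked, with the untreated libraries 1 to 4 and the IL1β libraries 5 to 8 along the horizontal axis. The totals run from 1.14% in library 5 to 2.33% in library 2, and the groups overlap.

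Of the 37 genes, 23 had enough counts to be tested, which were all 13 mRNAs, both rRNAs and 8 of the 22 tRNAs. None rose and none fell with IL1β in edgeR's quasi-likelihood test with Benjamini-Hochberg adjustment, and adjusted p ran from 0.493 to 0.942. At an unadjusted p under 0.05 the test called 0 of the 23, where 4.55% of all genes were called lower and 6.23% higher. DESeq2, which called 3.55% of all genes it gave an adjusted p, and limma-voom, which called 1.29%, also called 0 of the 23, adjusted or unadjusted. For no member did all IL1β libraries lie below, or all above, the untreated ones, against 3.41% of all genes for the first and 4.6% for the second.

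The fitted changes nonetheless leaned to 1 side. The log2 fold change of IL1β over untreated was below 0 for 22 of the 23 genes tested, against 52.2% of all genes, and its median was -0.31 over the members and -0.02 over all genes. The members are not independent in this, since they share precursor RNAs and libraries, and library 2 was the highest for 12 of the 13 mRNAs. Without library 2, 16 of 23 were below 0 and the median was -0.13.

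**Figure D2:**
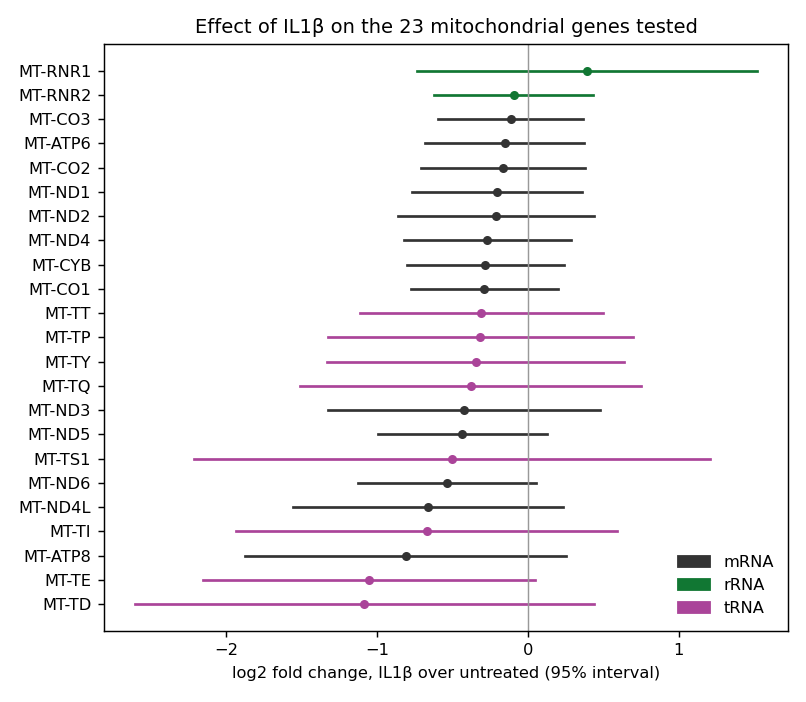
Log2 fold change of IL1β over untreated (horizontal axis) for each of the 23 mitochondrial genes tested, with its 95% interval as a bar. All 23 intervals include 0, and the point of 1 gene, MT-RNR1, lies above 0.

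The rRNAs come first along the transcript of the plus strand. MT-RNR1 (chrM:648-1601), the RNA of the small mitochondrial ribosomal subunit, stood at 467, 362, 273 and 647 CPM in libraries 1 to 4 and at 352, 332, 287 and 1323 CPM in libraries 5 to 8. Library 8 was far above the rest and the other 3 IL1β libraries lay within the untreated range. Its log2 fold change was 0.39 (SE 0.50, 95% interval -0.74 to 1.52, edgeR adjusted p 0.85), and -0.43 without library 8. MT-RNR2 (chrM:1671-3229), the RNA of the large subunit, stood at 2833, 4401, 2545 and 3524 CPM in the untreated libraries and at 2337, 2887, 2982 and 4258 CPM in the IL1β libraries. Here library 2 was the highest and library 8 next to it, and the log2 fold change was -0.09 (SE 0.24, 95% interval -0.62 to 0.43, edgeR adjusted p 0.942).

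The balance of rRNAs and mRNAs was different in library 8. There were 0.305, 0.285, 0.313 and 0.331 rRNA counts per mRNA count in libraries 1 to 4, and 0.260, 0.305, 0.256 and 0.708 in libraries 5 to 8. The difference between the group means was 0.0738, and -0.0348 without library 8. Per kilobase of gene (kb), MT-RNR1 reached 0.269, 0.134, 0.176 and 0.300 of MT-RNR2 in the untreated and 0.246, 0.188, 0.157 and 0.508 in the IL1β libraries. A ribosome holds 1 of each. Libraries 8 and 4 had the highest ratios and library 2 the lowest.

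Of the mRNAs, those of complex IV, cytochrome c oxidase, were the most abundant. MT-CO1 (chrM:5904-7445), the catalytic subunit, stood at 2375, 3708, 2261 and 2874 CPM in libraries 1 to 4 and at 2085, 2349, 2972 and 1776 CPM in libraries 5 to 8. Its log2 fold change was -0.29 (SE 0.22, 95% interval -0.78 to 0.20, edgeR adjusted p 0.715). MT-CO2 (chrM:7586-8269), the subunit that takes electrons from cytochrome c, stood at 1550, 2857, 1621 and 1993 CPM and at 1799, 1856, 2230 and 1277 CPM in the same order. MT-CO3 (chrM:9207-9990), the third core subunit, stood at 1763, 2142, 1467 and 1850 CPM and at 2061, 1465, 1975 and 1169 CPM. Library 2 was the highest and library 8 the lowest for each of them, and their log2 fold changes were -0.16 (SE 0.24) and -0.11 (SE 0.21), with edgeR adjusted p of 0.877 and 0.913. Over the 8 libraries the ratio of MT-CO2 to MT-CO1 per kb varied 1.32-fold, and that of MT-CO3 to MT-CO1 varied 1.71-fold, from 1.14 in library 2 to 1.94 in library 5.

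Complex I, the NADH dehydrogenase that feeds electrons into the chain, takes 7 of the mRNAs. MT-ND4 (chrM:10760-12137), its most abundant mRNA by CPM and a part of its proton pump, stood at 1494, 2435, 1144 and 1941 CPM in libraries 1 to 4 and at 1361, 1542, 1780 and 1137 CPM in libraries 5 to 8. Its log2 fold change was -0.27 (SE 0.25, edgeR adjusted p 0.768). MT-ND1 (chrM:3307-4262), near the quinone site, and MT-ND2 (chrM:4470-5511), a pump subunit, ranged from 287 to 564 CPM and from 336 to 902 CPM, with log2 fold changes of -0.21 for each and edgeR adjusted p of 0.836 and 0.862. Both were highest in library 2 and lowest in library 3, which are both untreated.

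MT-ND5 (chrM:12337-14148), the longest mitochondrial mRNA and also a pump subunit, stood at 431, 624, 340 and 536 CPM in the untreated and at 253, 364, 486 and 327 CPM in the IL1β libraries. Its log2 fold change was -0.43 (SE 0.25, 95% interval -0.99 to 0.13, edgeR adjusted p 0.607). MT-ND6 (chrM:14149-14673), the mRNA of the minus strand, stood at 63.2, 102, 50.1 and 107 CPM and at 43.3, 56.5, 60.9 and 61.6 CPM. Of the mRNAs it had the smallest p, with a log2 fold change of -0.54 (SE 0.26, 95% interval -1.12 to 0.05, edgeR unadjusted p 0.0692, adjusted p 0.515). Libraries 2 and 4 were high in MT-ND6, while the untreated libraries 1 and 3 lay among or next to the IL1β libraries. Measured against MT-ND5, which lies beside it on the other strand, MT-ND6 reached 0.507, 0.562, 0.509 and 0.691 per kb in libraries 1 to 4 and 0.590, 0.535, 0.432 and 0.651 in libraries 5 to 8, so that the groups overlapped and libraries 4 and 8 were the highest.

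MT-CYB (chrM:14747-15887), cytochrome b, is the only mitochondrial mRNA of complex III. It ranged from 483 to 922 CPM in untreated and from 421 to 716 CPM in IL1β libraries, with a log2 fold change of -0.28 (SE 0.23, 95% interval -0.80 to 0.24, edgeR adjusted p 0.74). MT-ATP6 (chrM:8527-9207), the subunit of the ATP synthase that forms its proton path, stood at 714, 1193, 708 and 1007 CPM and at 698, 802, 1097 and 657 CPM, with a log2 fold change of -0.15 (SE 0.24, edgeR adjusted p 0.881). Library 2 was the highest and library 8 the lowest for both genes.

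The lowest log2 fold changes among the mRNAs were those of the 2 shortest genes. MT-ATP8 (chrM:8366-8572, 207 bases) stood at 134, 266, 53.4 and 100.3 CPM in libraries 1 to 4 and at 35.5, 91.6, 94.0 and 95.1 CPM in libraries 5 to 8. Its log2 fold change was -0.81 (SE 0.48, 95% interval -1.87 to 0.25, edgeR adjusted p 0.616). MT-ND4L (chrM:10470-10766, 297 bases), a small complex I subunit, stood at 196, 402, 118 and 213 CPM and at 70.6, 173, 192 and 151 CPM, with a log2 fold change of -0.66 (SE 0.40, 95% interval -1.55 to 0.23, edgeR adjusted p 0.63). MT-ND3 (chrM:10059-10404, 346 bases), the next shortest and also a complex I subunit, stood at 349, 576, 139 and 226 CPM and at 290, 301, 213 and 159 CPM, with a log2 fold change of -0.42 (SE 0.40, edgeR adjusted p 0.776). Without untreated library 2 the log2 fold changes were -0.28 for MT-ATP8, -0.26 for MT-ND4L and 0.015 for MT-ND3. There MT-ND6 was at -0.40 and MT-ND5 at -0.29. Without IL1β library 5, MT-ATP8 was still the lowest mRNA at -0.58. MT-ND3 was then at -0.54, and MT-ND4L was level with MT-ND6 at -0.44. The place of the 2 shortest genes thus depends on library 2 and on library 5.

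These 3 genes also had the widest spread between libraries of all mRNAs. The highest library exceeded the lowest 7.51-fold for MT-ATP8, 5.69-fold for MT-ND4L and 4.14-fold for MT-ND3, against 1.82-fold to 2.69-fold for the other 10 mRNAs. For MT-ATP8 and MT-ND4L the highest was library 2 and the lowest library 5. Relative to the partner with which it shares an RNA, MT-ATP8 per kb reached 0.619, 0.735, 0.248 and 0.328 of MT-ATP6 in libraries 1 to 4 and 0.167, 0.376, 0.282 and 0.476 in libraries 5 to 8. MT-ND4L reached 0.607, 0.765, 0.480 and 0.509 of MT-ND4 in libraries 1 to 4 and 0.241, 0.521, 0.501 and 0.616 in libraries 5 to 8. MT-ND3, which has an RNA of its own, reached 0.215 to 0.609 of MT-CO3, its neighbour before the tRNA MT-TG. In all 3 ratios library 2 was the highest, and in both pairs that share an RNA library 5 was the lowest. How reads in the overlaps were assigned is not given in the sources used here. For reference, the 129 nuclear protein-coding genes with a longest transcript under 500 bases took 0.202% to 0.350% of counts, highest in library 5. Only 10 of them had enough counts to be tested. The part of RNA length or fragment size in the short genes was not tested.

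**Figure D3:**
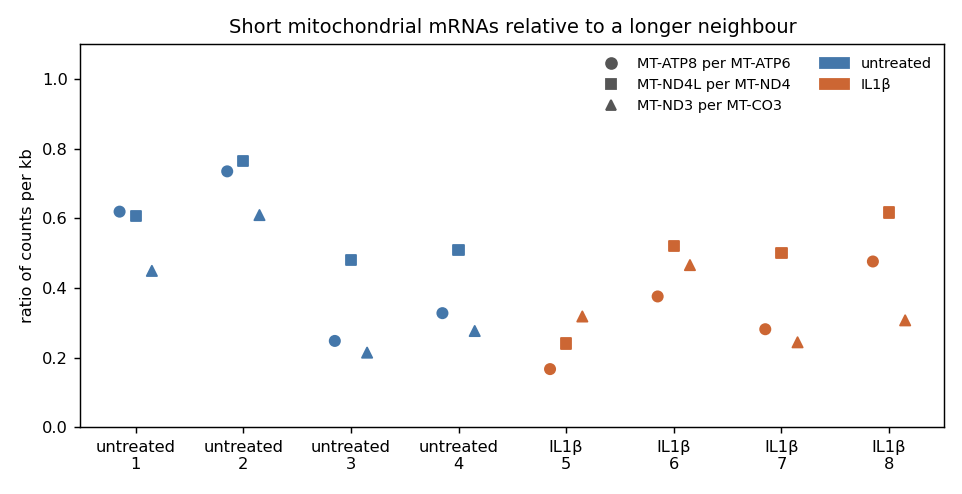
Ratio of counts per kb of a short mitochondrial mRNA to that of a longer one (vertical axis) in each of the 8 libraries (horizontal axis), for MT-ATP8 over MT-ATP6, MT-ND4L over MT-ND4 and MT-ND3 over MT-CO3. Library 2 is the highest in each series, and library 5 is the lowest for MT-ATP8 at 0.167 and for MT-ND4L at 0.241.

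Compared with one another per kb, the mRNAs and rRNAs stood in a similar order in the 8 libraries. By the mean over the 8 libraries, MT-CO2 was first at 2774 CPM per kb, followed by MT-CO3 at 2215, MT-RNR2 at 2066 and MT-CO1 at 1654 CPM per kb. MT-CO2 was first in 7 libraries and second to MT-RNR2 in library 8. It was not separated from MT-CO3 in library 5, where they had 2630 and 2629 CPM per kb, and MT-CO3 and MT-RNR2 changed places between libraries. MT-ATP6 at 1262 and MT-ND4 at 1164 CPM per kb came next and also changed places.

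Lower in the order, neighbours were not separated. MT-ND3 (813 CPM per kb), MT-ND4L (638), MT-CYB (563), MT-RNR1 (530), MT-ATP8 (526), MT-ND2 (525) and MT-ND1 (447) exchanged ranks between libraries, and MT-RNR1 moved the most, from 13th in 4 libraries to 4th in library 8. MT-ND5 was 14th at 232 CPM per kb and MT-ND6 15th at 130 CPM per kb in each of the 8 libraries. The difference between the highest and the lowest mRNA was thus larger than the spread of either between libraries.

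**Figure D4:**
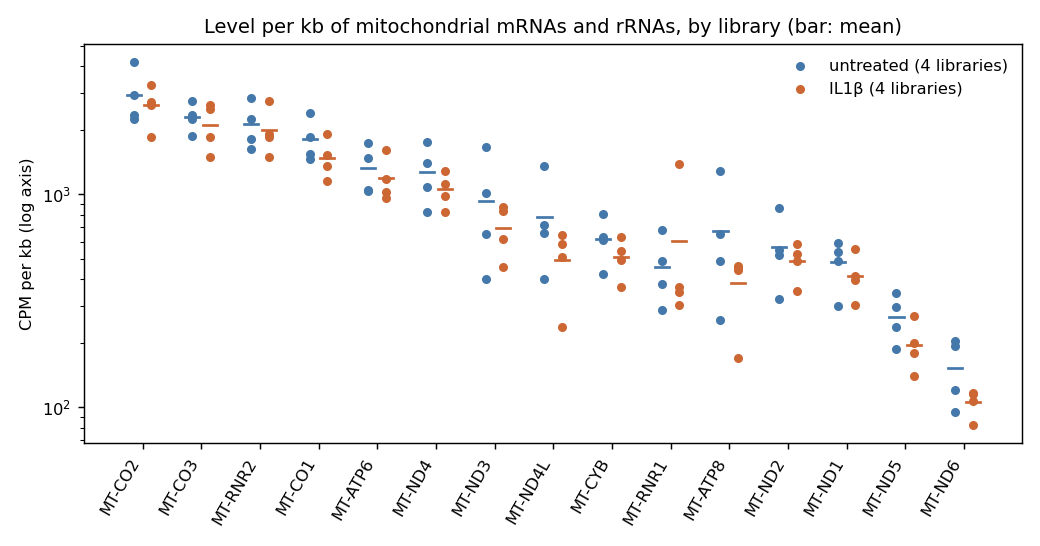
Level in CPM per kb (vertical log axis) of the 13 mRNAs and 2 rRNAs, ordered by their mean (bar), with a point for each of the 4 untreated and 4 IL1β libraries. MT-CO2 leads with a mean of 2774 and MT-ND6 is last with 130, and the points of the groups overlap for every gene.

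The make-up of the mRNA pool, in which a change shared by all mRNAs cancels, overlapped between the groups. Complex IV mRNAs took 52.6%, 52.2%, 59.4% and 53.3% of mRNA counts in libraries 1 to 4 and 57.4%, 53.7%, 56.3% and 53.6% in libraries 5 to 8, with means of 54.4% ± 3.39 and 55.3% ± 1.92 (SD, n = 4 each). Complex I mRNAs took 33.2%, 33.6%, 26.8% and 32.2% and 29.5%, 32.5%, 28.8% and 31.6%, with means of 31.4% ± 3.14 and 30.6% ± 1.72. Library 3 was thus the highest for complex IV and the lowest for complex I. ATP synthase mRNAs took 8.46% ± 0.434 and 8.61% ± 1.12, and MT-CYB took 5.75% ± 0.473 and 5.56% ± 0.304. All of these shares overlapped between the groups and differed by less than an SD.

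The tRNAs were close to the limit of what was counted. All 22 together had 1900 counts in the 8 libraries, which was 0.0594% to 0.126% of the mitochondrial counts of a library. MT-TT, the tRNA for threonine, held 41.2% of them and MT-TE, the tRNA for glutamate on the minus strand, had the smallest p of the members. MT-TK, the tRNA for lysine between MT-CO2 and MT-ATP8, had no count in any library. Their sequences are shown as the most counted tRNA, the one with the smallest p and an uncounted one, with no base in capitals.
MT-TT, plus strand, chrM:15888-15953: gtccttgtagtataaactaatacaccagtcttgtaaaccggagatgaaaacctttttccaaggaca
MT-TE, minus strand, chrM:14674-14742: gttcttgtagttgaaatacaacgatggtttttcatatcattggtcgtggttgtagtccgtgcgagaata
MT-TK, plus strand, chrM:8295-8364: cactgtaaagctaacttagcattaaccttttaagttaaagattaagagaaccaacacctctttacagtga
Each is short enough that a read could span the whole tRNA or run into a neighbouring mRNA.

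MT-TT had 221, 98, 90 and 73 counts in libraries 1 to 4 and 86, 83, 90 and 41 in libraries 5 to 8, with library 1 the highest and library 8 the lowest. Its log2 fold change was -0.31 with an edgeR adjusted p of 0.827. MT-TE had 17, 26, 10 and 20 counts in untreated and 3, 12, 10 and 6 counts in IL1β libraries, or 0.624, 1.44, 0.420 and 0.996 CPM against 0.220, 0.515, 0.482 and 0.403 CPM. The untreated library 3 lay within the range of the IL1β libraries, and the log2 fold change was -1.05 (SE 0.49, 95% interval -2.15 to 0.05, edgeR unadjusted p 0.0593, adjusted p 0.493). MT-TD, the tRNA for aspartate, had the lowest log2 fold change of the members, -1.08 (SE 0.68, 95% interval -2.60 to 0.44, edgeR adjusted p 0.644). Its counts were 51, 26, 3 and 12 in libraries 1 to 4 and 8, 10, 10 and 6 in libraries 5 to 8, so that the untreated library 3 was the lowest of all.

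The other tRNAs tested were MT-TI (isoleucine, log2 fold change -0.67), MT-TQ (glutamine, -0.38), MT-TY (tyrosine, -0.35), MT-TS1 (a serine tRNA, -0.50) and MT-TP (proline, -0.31), with edgeR adjusted p from 0.747 to 0.88. MT-TI and MT-TQ overlap by 3 bases on opposite strands. Of the 8 tRNAs tested, 5 lie on the minus strand, which holds 8 of the 22. The 14 tRNAs of the plus strand had 67.9% of the tRNA counts. Among the 14 tRNAs not tested, 9 had at least 1 count, namely MT-TF, MT-TV, MT-TL1, MT-TM, MT-TW, MT-TA, MT-TC, MT-TH and MT-TS2. The highest total was 51, for MT-TW, the tRNA for tryptophan. The other 5, MT-TN, MT-TK, MT-TG, MT-TR and MT-TL2, had none. A count of 0 among 161119645 allows up to 0.0186 CPM (3 counts over the 8 libraries), for counting error only.

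MT-RNR1 stood out in library 8, as did some of the nuclear RNAs that lack a poly(A) tail or stay in the nucleus. These were RN7SL1, RMRP and MALAT1, but not NEAT1, and RMRP and MALAT1 were chosen after their values were seen. RN7SL1, the RNA of the signal recognition particle, which has near-identical copies, stood at 20.4, 5.71, 38.7 and 88.9 CPM in libraries 1 to 4 and at 49.8, 23.7, 20.3 and 260.5 CPM in libraries 5 to 8. RMRP, the RNA of RNase MRP, stood at 6.53, 1.995, 7.86 and 27.8 CPM and at 11.5, 8.84, 5.89 and 67.7 CPM. MALAT1, a nuclear long noncoding RNA, stood at 53.4, 23.1, 18.9 and 56.4 CPM and at 23.1, 21.7, 15.2 and 114.5 CPM. All 3 were highest in library 8 and next highest in library 4, as was MT-RNR1. MT-ND6 was also at its largest shares of the mRNA counts there, 0.851% in library 4 and 0.781% in library 8. The others had 0.418% to 0.609%. MT-ND5, on the plus strand, likewise had its largest shares in libraries 4 and 8, 4.255% and 4.142%, against 2.447% to 3.982%. In CPM, MT-ND6 in library 8 (61.6 CPM) lay below libraries 1 and 2 (63.2 and 102 CPM). NEAT1, another nuclear long noncoding RNA, stood at 46.8 to 68.2 CPM in untreated and 29.3 to 52.4 CPM in IL1β libraries (log2 fold change -0.52, edgeR adjusted p 0.437), with library 4 the highest. None of these nuclear RNAs passed the test (RN7SL1 log2 fold change 1.20, edgeR adjusted p 0.727), and RN7SK, RPPH1 and RN7SL2 were at 0. Whether the libraries were made by poly(A) selection or by removal of rRNA is not given in the sources used here, and the part of that step or of RNA quality in these values was not tested.

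**Figure D5:**
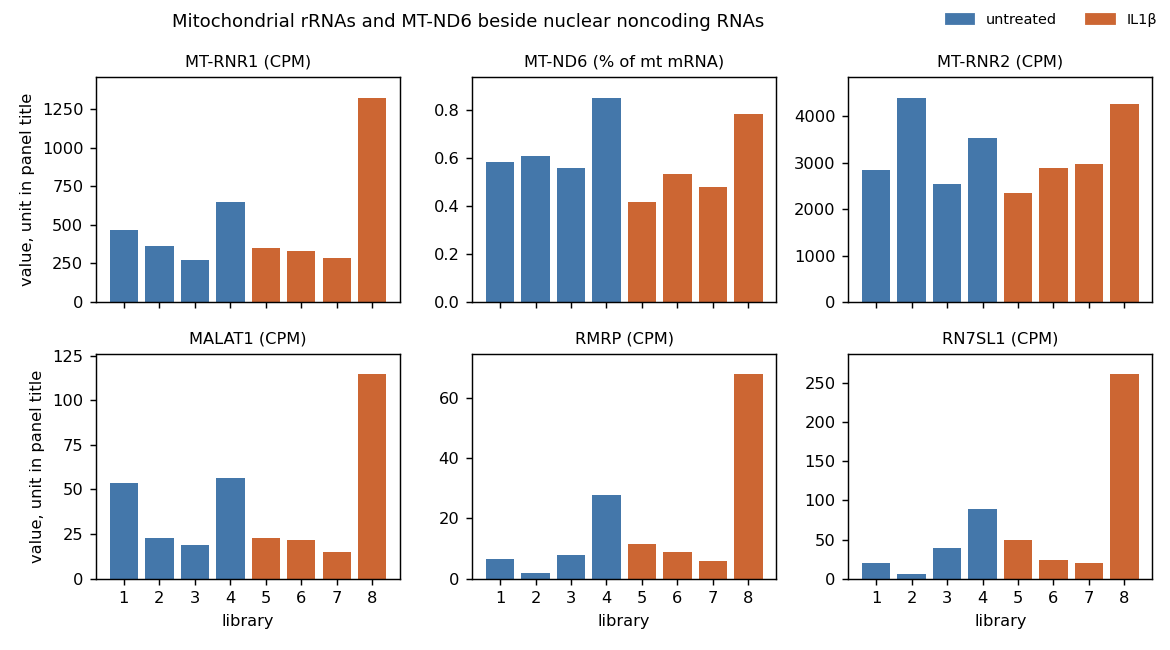
Values by library (1 to 8, horizontal axis; unit in each panel's title) of MT-RNR1 and other mitochondrial measures beside nuclear noncoding RNAs, with the 4 untreated and 4 IL1β libraries in different colours. Library 8 has the highest bar for MT-RNR1 (1323 CPM), RN7SL1 (260.5 CPM), RMRP (67.7 CPM) and MALAT1 (114.5 CPM), with library 4 next.

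Reads of mitochondrial mRNAs can also be assigned to copies of them in the nuclear genome. Among 407 genes named as such copies, 346 had no count and 3 could be tested, of which 0 rose and 0 fell. MTATP6P1 (chr1:633696-634376), a copy of MT-ATP6 that is 98.5% identical to it with 10 mismatches over 681 bases, had 4161, 4044, 3865 and 3982 counts in libraries 1 to 4 and 1729, 3554, 4217 and 1862 counts in libraries 5 to 8. That was 0.182 to 0.229 counts per count of MT-ATP6, and how reads were shared out between the gene and its copy is not stated, so that the levels of both are uncertain. MTND2P28, a copy of MT-ND2 that is 98.4% identical, had 0.0211 to 0.0276 counts per count of MT-ND2, and MTCO1P12, 98.6% identical to MT-CO1, had 0.00236 to 0.00353. The closest named copies of MT-CO2 and MT-ATP8 were 98.0% and 97.6% identical. Those of MT-CO3, MT-ND3, MT-CYB and MT-ND1 were only 82.1% to 87.5% identical.

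The nuclear genes that make, process and use mitochondrial RNA gave no call either. Of 304 such genes in 12 lists, 293 were tested, 0 rose and 0 fell in edgeR, and their median log2 fold change was 0.01, close to that of all genes. At an unadjusted p under 0.05, edgeR called 12 of the 293 (4.1%) against 10.8% of all genes in either direction. DESeq2 called 2 of the 293 at an adjusted p under 0.05, against 3.55% of all genes it gave an adjusted p. They were YRDC and PTCD2, with edgeR log2 fold changes of 0.79 and -0.74. The list of mtDNA maintenance and transcription had a median of -0.26, with 20 of 25 below 0, where 52.2% of all genes were. Its most abundant genes were SSBP1, which binds single-stranded mtDNA, at 237 ± 35.6 CPM untreated and 232 ± 4.31 CPM with IL1β (SD, n = 4 each), and RRM2B, a nucleotide reductase, at a log2 fold change of -0.41 (SE 0.41). Genes of mitochondrial RNA processing and decay had a median of -0.12, with 24 of 34 below 0. LRPPRC, which stabilises mitochondrial mRNAs, stood at 359, 305, 267 and 242 CPM in libraries 1 to 4 and at 217, 233, 260 and 270 CPM in libraries 5 to 8 (log2 fold change -0.26, SE 0.17, edgeR adjusted p 0.671). GRSF1, of the mitochondrial RNA granules, had a log2 fold change of -0.26 (SE 0.15, edgeR adjusted p 0.607). For both the groups overlapped.

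The genes of mitochondrial translation were centred near 0, with medians of 0.06 over 82 ribosomal proteins, -0.11 over 17 translation factors, -0.05 over 22 aminoacyl-tRNA synthetases and -0.04 over 20 tRNA modifying enzymes. The 15 biogenesis regulators had a median of -0.12. TUFM, the mitochondrial elongation factor Tu, had a log2 fold change of 0.20 (SE 0.27) and MRPL3, a protein of the large ribosomal subunit, of -0.02 (SE 0.17). Nuclear subunits of complex I had a median of 0.14 (9 of 35 below 0), and those of complex III had 0.13 (2 of 9). Medians were 0.16 for complex IV (1 of 12 below 0) and 0.03 for the ATP synthase (7 of 18). The summed CPM of these lists overlapped between the groups. Complex I summed to 2053 to 2288 CPM in untreated and 1960 to 3126 CPM in IL1β libraries. For complex IV the sums were 1498 to 1851 CPM and 1475 to 2713 CPM. The part of library 5 in these medians was not tested. Complex II, which has no mitochondrially encoded part, had a median of 0.00 (2 of 4 below 0). COX4I1, a nuclear subunit of complex IV, stood at 326, 253, 320.5 and 335 CPM in libraries 1 to 4 and at 600.5, 334, 330 and 306 CPM in libraries 5 to 8 (log2 fold change 0.35, SE 0.24, edgeR adjusted p 0.688). Library 5, the lowest for mitochondrial counts, was the highest for COX4I1, and the other 7 libraries lay within 253 to 335 CPM. ATP5F1B, the catalytic subunit of the ATP synthase, was also highest in library 5, at 959 CPM against 677 to 788 CPM in the others. ATP5F1A, another of its nuclear subunits, went the other way and was lowest in library 5, at 207 CPM against 221 to 333 CPM.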

How the data were processed

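RNA of A498 cells was measured in 4 untreated libraries and 4 libraries of cells kept with IL1β. Per the labels and the study's methods, stranded libraries were made, reads were trimmed, aligned to hg38 with STAR 2.5.3a and counted with featureCounts, and the authors deposited raw counts per gene, 1 column per library. The version, annotation, strand and multi-mapping settings of featureCounts were not found in the labels or the methods. They decide how reads in overlapping genes and near-identical nuclear copies were assigned.

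There were 27 entries named by a date in place of a symbol, and these, equal to 0.197% to 0.236% of each total, were left out. Totals were 15409093 to 27040505 counts. The chi-square per gene between the most similar pair of libraries was 13.8, so that none was a duplicate. In R 4.3.3, edgeR 4.0.16 was used with TMM factors, filterByExpr and the quasi-likelihood F test on the condition for 15062 genes, with Benjamini-Hochberg adjustment over all of them and a threshold of 0.05. CPM are TMM-scaled, and CPM per kb divide by the length in GENCODE 44. Shares, ratios and pool make-up are sums over members and carry no test. Alternatives used other scaling, filters, DESeq2 1.42.0, limma-voom (limma 3.58.1), thinned libraries and libraries left out. The fit was tested on simulated data. All MT- genes are named. Of each nuclear list of genes, those that passed, or the 2 most abundant, could be named, and further genes (KRT8, VIM, CD3E, YRDC, PTCD2, RMRP, MALAT1, RN7SK, RPPH1, RN7SL2, MTCO1P12 and MRPL3 among them) were chosen after their values were seen where they fall outside this rule. The members and lists were chosen with earlier results of these data known.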

Additional observations from a re-analysis of the deposited data

Results flagged for a closer look

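The 72 groups of 4 libraries tested covered members, their measures and the nuclear RNAs RN7SL1, RMRP and MALAT1, but not NEAT1. In 7 of them the gap of a library to its nearest other exceeded Dixon's critical value for the range. Chance gives about 5% for independent groups not chosen by their values. The groups here share libraries and genes, and RMRP and MALAT1 were chosen after their values were seen. The 7 can therefore not be set against that share. In 5 of the 7 the library was IL1β library 8, the highest for rRNA counts per mRNA count (0.708), MT-RNR1 (1323 CPM), RN7SL1 (260.5 CPM), RMRP (67.7 CPM) and MALAT1 (114.5 CPM). IL1β library 5 was far below the other IL1β libraries in MT-ATP8, at 35.5 CPM. Untreated library 3 was far above the other untreated libraries in the share of mRNA counts from complex IV, at 59.4%.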

How the results depend on the processing

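No setting of the 18 tried called any MT- gene, and the lowest edgeR, DESeq2 or limma-voom adjusted p over them was 0.33. Of 400 values of a gene under a setting, 391 kept the sign they had with all libraries and TMM factors. The 9 that turned all came from leaving out 1 library. As libraries were left out, the log2 fold change ran from -0.28 to 0.071 for MT-RNR2, from -0.40 to 0.070 for MT-ND2, from -0.29 to 0.057 for MT-CO2, from -0.33 to 0.0068 for MT-ATP6, from -0.67 to 0.015 for MT-ND3 and from -0.56 to 0.023 for MT-TP, each highest without untreated library 2. It ran from -0.43 (without IL1β library 8) to 0.65 for MT-RNR1 and from -0.24 to 0.023 (without IL1β library 8) for MT-CO3, and was 0.016 for MT-RNR2 without IL1β library 5. The cause was not tested. With library size only in place of TMM, the median of all genes was -0.18 and that of the members -0.49. At an unadjusted p under 0.05, 6 of 23 members (26.1%, against 10.5% of all genes) were called without untreated library 3, 2 (8.7%) with upper-quartile factors or library size only (11.8% and 13.1% of all genes), 1 of 20 without untreated library 1 (10.6%), 1 of 23 without IL1β library 7 (8.92%), and 0 under the other settings. The difference in the share of counts ran from -0.501 (without untreated library 3) to -0.149 (without untreated library 2) percentage points as libraries were left out. DESeq2 called 2 of the 293 nuclear genes, against 3.55% of all genes, where edgeR called 0. No paired analysis was possible because the labels give no pairing of the libraries. Among the members only tRNAs, 14 of the 22, had too few counts to be tested, and the part of depth in this was not tested.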
